A study of Drosophila melanogaster with 4 samples.

Results

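The genes described here encode the proteins of the large subunit of the cytosolic ribosome of Drosophila melanogaster. They were taken as the protein-coding genes whose symbol begins with RpL followed by a digit or by P, without the 4 symbols that end in -like and without the mitochondrial mRpL genes. The rule gave 50 of 13945 protein-coding genes, called RpL genes below. Binding of the protein CG1233 had been mapped by chromatin immunoprecipitation and sequencing (ChIP-seq) in whole embryos, males and females together, collected over 0 to 24 h of development. All 4 biological replicates came from 1 transgenic line that stably carried CG1233 with GFP at its C terminus, so there was 1 group and no comparison between conditions. The labels do not say which promoter drove the fusion gene, nor whether the endogenous gene was still present. The labels also conflict, since the antibody given for each library is CG1233 but its description speaks of an input control. The lists were read as ChIP calls. The authors' optimal list held 5211 peaks, and tested on the files these were the strongest calls of a pooled list of 30000. Each replicate had its own list of 30000 calls, weak background calls included, made against 1 control that all replicates shared. The lists hold no read counts, so depth is unknown, and no gene expression against which the labelled embryo could be checked.

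The large subunit joins amino acids at its peptidyl transferase centre, and the new chain leaves through an exit tunnel lined by ribosomal proteins. Nearly every cell needs all of these proteins in matched amounts, and in Drosophila loss of 1 copy of many of the genes gives the Minute phenotype of slow growth and short bristles. Their transcription commonly starts at a C within a run of pyrimidines, the TCT initiator, in place of the standard initiator. The promoters of Drosophila housekeeping genes often hold the DRE, which the factor DREF binds, or motif 1, which the factor M1BP binds. A few of the proteins have a second gene, and some of those paralogs are known for use mainly in the germ line.

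CG1233-GFP peaks lay at most RpL promoters and close to the transcription start site (TSS). An optimal peak had its summit within 500 bp of an annotated TSS at 45 of 50 genes (95% exact interval 78.2 to 96.7%), against 19.9% of all protein-coding genes. The interval covers counting error only, and neighbouring genes can share a peak. The median summit position, with minus for upstream of the TSS, was -19 bp, against -135 bp for all protein-coding genes with such a peak. Among the strongest of these peaks were those at RpL7, RpL14, RpL34b, RpL13A and RpLP0, and the 5 genes without one were RpL5, RpL10Aa, RpL21, RpL37-2 and RpL40.

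The promoters below show the letters at which these peaks lay. They are the RefSeq Release 6 (dm6) sequence of the gene's own strand, from 60 bases before the TSS to 20 bases from the TSS on, 80 in all. Capitals mark an initiator word (TCTTTC or TCTTTT, or either with C as its first base, and its second base, a C, within 5 bp of the TSS) and each copy of CGGAA or its reverse complement TTCCG, which run together where they overlap. RpL7 (chr2L:10201040-10201119, plus strand), RpL14 (chr3L:8600946-8601025, plus), RpL13A (chr3R:5624414-5624493, plus), RpLP0 (chr3L:22076032-22076111, plus) and RpL34b (chr3R:9401207-9401286, minus) are shown for their strong peaks. RpL34a (chr3R:26059248-26059327, minus) is the paralog of RpL34b. RpL10Ab (chr3L:11822791-11822870, plus) had a peak and its paralog RpL10Aa (chr3R:15037306-15037385, plus) had none. RpL40 (chr2L:4227639-4227718, plus) is shown because it holds an initiator word and had no optimal peak.
RpL7: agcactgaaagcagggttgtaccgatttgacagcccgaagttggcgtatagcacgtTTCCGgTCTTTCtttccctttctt
RpL14: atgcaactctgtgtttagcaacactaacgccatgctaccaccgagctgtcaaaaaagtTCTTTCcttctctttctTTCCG
RpL13A: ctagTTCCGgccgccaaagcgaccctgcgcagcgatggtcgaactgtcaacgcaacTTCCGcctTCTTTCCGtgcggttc
RpLP0: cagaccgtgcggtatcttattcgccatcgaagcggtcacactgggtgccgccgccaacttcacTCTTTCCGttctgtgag
RpL34b: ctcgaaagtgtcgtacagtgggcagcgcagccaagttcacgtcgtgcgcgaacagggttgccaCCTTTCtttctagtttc
RpL34a: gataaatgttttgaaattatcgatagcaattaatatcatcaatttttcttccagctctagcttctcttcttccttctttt
RpL10Ab: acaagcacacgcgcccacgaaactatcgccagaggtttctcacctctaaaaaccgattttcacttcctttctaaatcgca
RpL10Aa: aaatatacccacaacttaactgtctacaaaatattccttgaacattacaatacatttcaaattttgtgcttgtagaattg
RpL40: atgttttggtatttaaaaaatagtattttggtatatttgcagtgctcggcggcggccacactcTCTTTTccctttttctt

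The initiator word was searched on the strand of the gene, at every annotated TSS. It was found at 30 of 50 RpL genes, against 2.13% of protein-coding genes. Of the 37 genes of the small subunit (RpS genes) 24 held it, and of the 47 mitochondrial large subunit genes 2. In 27 of the 30 RpL genes the C lay downstream of the annotated TSS, at a median of 4 bp, and in no RpL gene exactly on it. The search reached only 5 bp from a TSS, which bounds that median. Within 20 bp of a TSS the count was 49 of 50 RpL genes, against 7.62% of protein-coding genes, and the 1 gene without the word was RpL10Aa. The word did not separate RpL genes with a peak from those without. A peak was found at 26 of the 30 genes with the word within 5 bp and at 19 of the 20 genes without it. Outside the RpL and RpS genes, 72 of 243 genes with the word had an optimal promoter peak (29.6%). Of all protein-coding genes without the word, 2662 of 13648 had one (19.5%). This difference was not tested. At the 26 RpL genes with both, the summit lay at a median of -36.5 bp from the TSS that carries the word (quartiles -47.25 and -15.5, range -80 to 25). It was upstream of that TSS in 24 of them.

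Words of other core promoter factors were counted within 50 bp of the summit, on both strands. Each is given as a count of the 45 RpL peaks, as a share of the 2008 promoter peaks of protein-coding genes, and as a share of all protein-coding promoters in a window of the same length at the 5′-most TSS. The DRE (TATCGATA) was in 9 RpL peaks, against 2.84% of promoter peaks and 5.56% of promoters. They included those of RpL34a, RpL41, RpL19, RpL27 and RpL10Ab. Motif 1 (GGTCACAC) was in 6, against 1.89% of peaks and 5.59% of promoters, at RpLP0, RpL30, RpLP1, RpL37A, RpL27A and RpL6. The word CATCNCTA was in 3 (RpL27, RpL26 and RpL36A), against 2.19% of peaks and 3.96% of promoters. The GAGAG word was in 2 (RpL29 and RpL35), against 8.52% of peaks and 11.5% of promoters. The E-box word CAGCTG was in none of the 45, which allows a share of up to 6.67%, against 5.33% of peaks and 9.34% of promoters. The TATA words GTATAAA and CTATAAA were also in none, with the same limit, against 6.37% of peaks and 8.63% of promoters. For both the limit lies above the share in promoter peaks and below that in promoters. At the 622 other promoter summits within 80 bp of a TSS, which are placed more like the RpL summits, the DRE was in 5.95%, motif 1 in 4.34%, CATCNCTA in 4.02%, GAGAG in 10.6%, the E-box word in 10.1% and the TATA words in 4.66%. The limit of 6.67% is thus below the E-box share of these summits and above their TATA share. Of the 27 RpS peaks, the DRE was in 4 (14.8%), motif 1 in 2, CATCNCTA in 1, GAGAG in 1, the E-box word in 4 and the TATA words in none. The DRE share and the absence of the TATA words were thus not particular to RpL peaks.

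Words of 6 bases that were frequent at RpL summits were picked after the values had been seen, so their RpL counts are a description of that choice. AAAGAA was in 26 of 45 RpL peaks (13.9% of promoter peaks, 9.5% of promoters), AAGAAA in 24 (16.8% and 10.6%) and AAAAGA in 23 (12.7% and 9.19%). CGGAAA was in 22 (8.07% and 6.56%) and CCGGAA in 18 (4.08% and 2.86%), and 24 peaks held at least 1 of those 2. The reverse complements of the first 3 are pyrimidine runs, that of AAAAGA being the initiator word TCTTTT, and that of CGGAAA overlaps an initiator word wherever TCTTTCCG is written, as at RpLP0 and RpL13A. At the 622 other summits within 80 bp of a TSS, the shares were 12.5% for AAAGAA, 16.2% for AAGAAA, 10.3% for AAAAGA, 11.4% for CGGAAA and 6.27% for CCGGAA. RpS peaks, which did not serve to pick the words, held them in 14, 11, 13, 9 and 6 of 27 in the same order. The shared core CGGAA lay within 50 bp of the TSS at 37 of 50 RpL genes (74.0%), at 45.9% of RpS genes, at 6.38% of mitochondrial large subunit genes and at 16.1% of protein-coding genes. On the strand of the gene it was written TTCCG at 36 RpL genes and CGGAA at 4. G and C made up 46.6% of the bases around RpL summits and 47.8% around RpS summits, against 35.5% around all promoter summits. At the 622 other promoter summits within 80 bp of a TSS the share was 41.6%, between the RpL and the overall value.

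**Figure D1:**
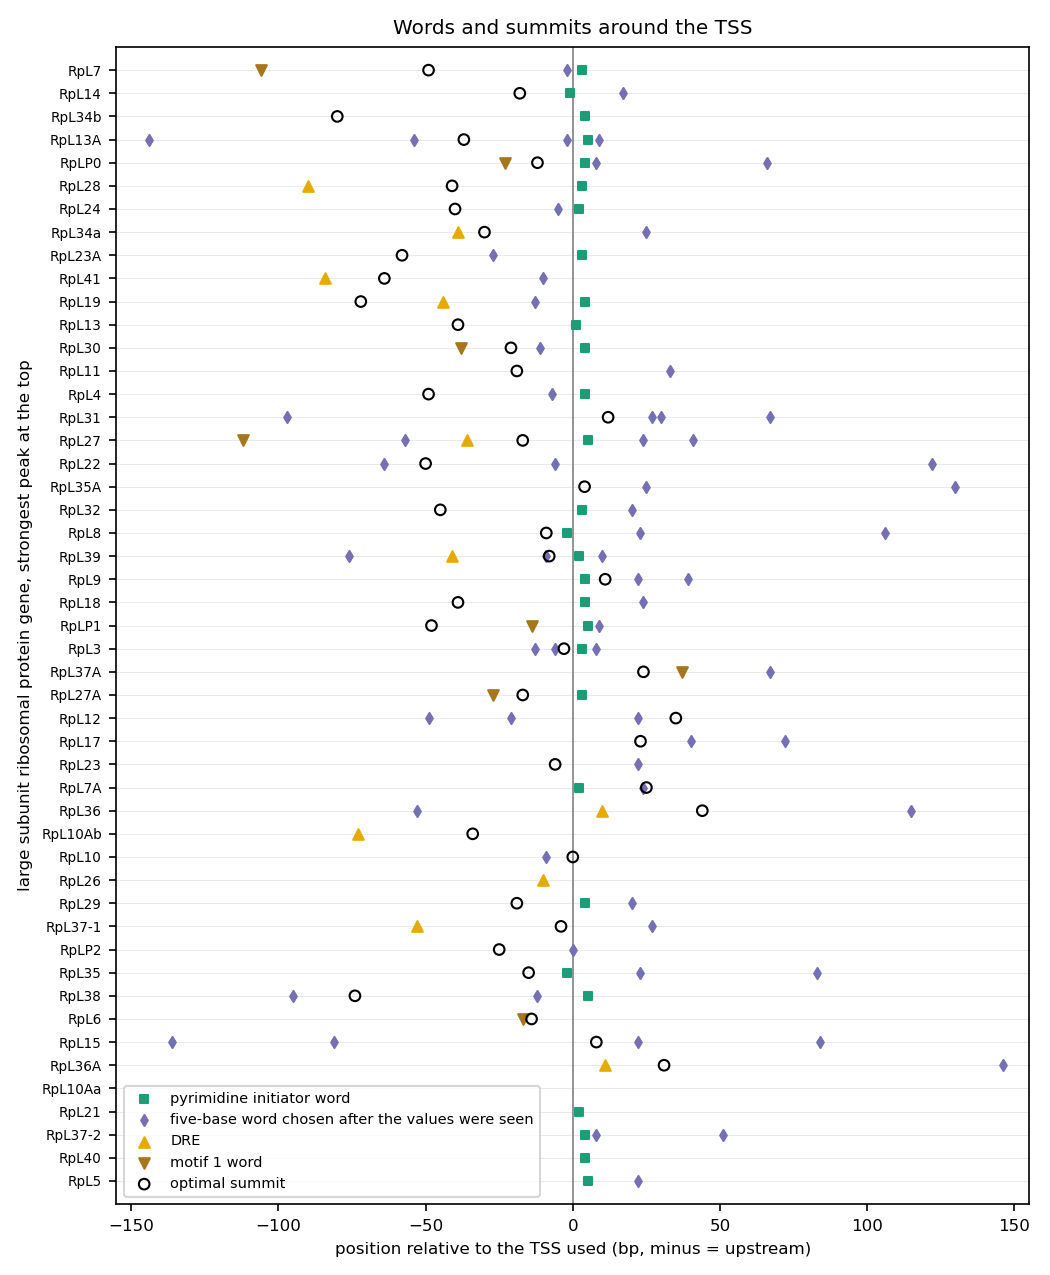
Position of sequence words and of the strongest optimal summit (open circles) at the RpL genes, in bp from the TSS that carries the initiator word or, without one, from the 5′-most TSS, with minus upstream. Genes run from the strongest peak at the top to those without a peak at the bottom, and the summit of RpL26, 211 bp from its 5′-most TSS, lies outside the axis. Of the 26 genes with both an initiator word and a peak, 24 have the summit upstream of the TSS that carries the word.

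In single replicates, a strong call was taken as one among the 5211 strongest of that replicate. Replicates 1 to 4 had such a call at the promoter of 41, 45, 41 and 42 RpL genes, which is 42.25 ± 1.89 genes (SD, n = 4). The shares of all protein-coding genes were 19.7, 19.2, 20.2 and 19.8% in the same replicates. The RpL count was thus several times the background in every replicate, and replicate 2 had the most. For RpS genes the share was 73.0% ± 5.84 (SD, n = 4), for mitochondrial large subunit genes 30.3% ± 4.72, and for 17 ribosome assembly and export factors, such as Nmd3 and eIF6, from 41.2 to 64.7%. The RpL share of 84.5% ± 3.79 was above the shares of the mitochondrial and assembly genes in each replicate, whereas in replicate 3 the RpS share (81.1%) was within 1 SD of the RpL share (82.0%). In the optimal list 27 of 37 RpS genes, 14 of 47 mitochondrial genes and 7 of 17 assembly factors had a promoter peak. Differences between gene families were not tested.

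**Figure D2:**
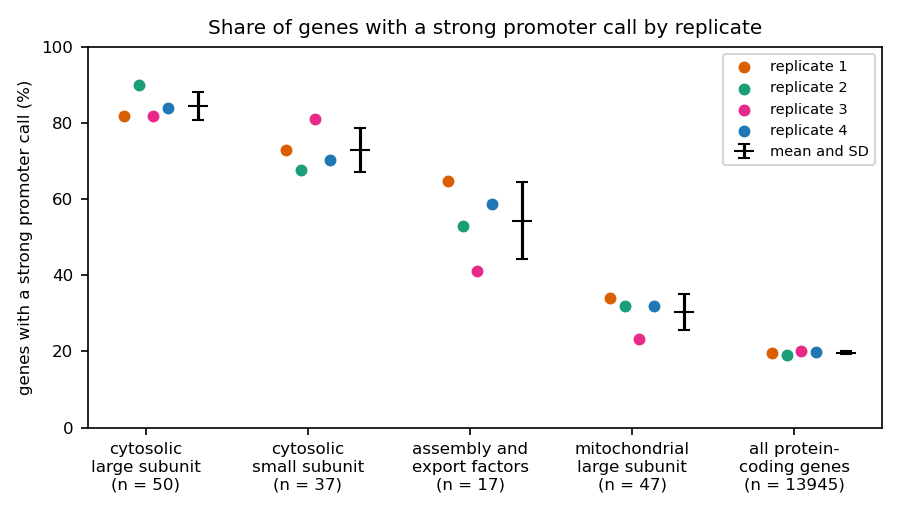
Share of genes, in percent, with a promoter call among the strongest calls of each replicate, for 5 sets of genes. Points are replicates and the bar beside them is the mean with its SD (n = 4). RpL genes lie at 82.0% or above in each, and all protein-coding genes between 19.2 and 20.2%.

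The RpL peaks ranked high and were shared by the replicates. Peaks were ranked by the authors' signal within a list, since its scale differs between lists. The median rank of the strongest promoter peak was 836 (quartiles 326 and 1710, range 85 to 5017) among the 5211, against 2160 for all protein-coding genes with a peak. The top of the list, taken as ranks up to 1302, held a promoter peak of 31 RpL genes, against 6.48% of protein-coding genes. Holding of a peak by a replicate means that a summit among the replicate's 5211 strongest calls fell inside it. All 4 replicates held the peak at 34 RpL genes, against 9.90% of protein-coding genes with a peak so held. The optimal list was made from the same alignments, so this agreement is partly built in. A pooled call of any strength was found at 47 RpL genes, against 47.8% of protein-coding genes.

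RpL7 had the strongest peak of all RpL genes, with rank 85 in the optimal list and ranks 87, 73, 101 and 115 in replicates 1 to 4. Its peak (2L, 10200895 to 10201200) also covers the start of Ripalpha, which is read in the other direction from 30 bp away. RpL14 ranked 168 (181, 167, 108 and 196 in the replicates; peak on 3L from 8600814 to 8601127). The first pair of genes thus stayed among the strongest 200 calls of every replicate.

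RpL34b ranked 186, with 316, 148, 336 and 195 in the replicates (peak on 3R, 9401154 to 9401537). RpL13A ranked 191, with 194, 204, 107 and 268 (3R, 5624283 to 5624581). Replicate 3 gave the lowest-placed rank of RpL34b and the best rank of RpL14 and RpL13A. RpLP0 ranked 200, with 155, 224, 422 and 217 (3L, 22075947 to 22076199), so that replicate 3 was again the farthest from the others. Like that of RpL7, these strong peaks also lay within 500 bp of a TSS of another protein-coding gene. The further genes were Nelf-E for RpL14, CG8132 for RpL34b, Spec2 and Dph4 for RpL13A, and CG7130 for RpLP0. At the weak end stood RpL36A, with rank 5017 and replicate ranks 3469, 4803, 2833 and 4497, and RpL15, with rank 4749.

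**Figure D3:**
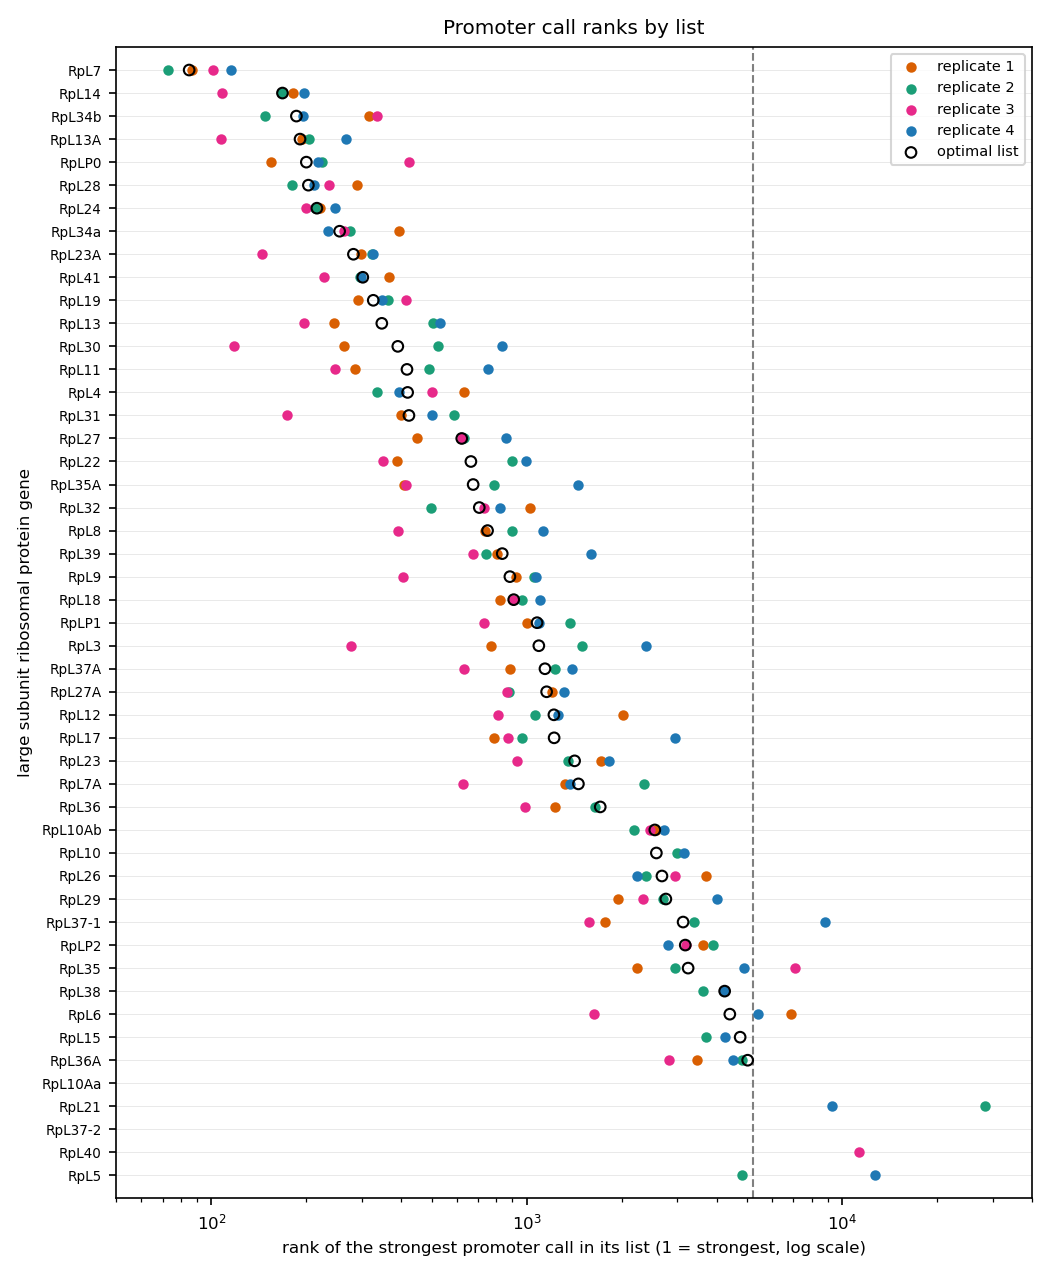
Rank of the strongest promoter call of the RpL genes in the 4 replicate lists (points) and in the optimal list (open circles), on a log axis where 1 is the strongest call. The dashed line marks rank 5211, the length of the optimal list. Genes without a point had no promoter call in that list, and ranks of 1 gene mostly lie close together compared with the spread between genes.

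Across the 40 RpL genes with a promoter call in every replicate, the replicates ordered the genes alike. Spearman's rho between replicate ranks averaged 0.862 over 6 pairs, from 0.796 between replicates 2 and 3 to 0.947 between replicates 2 and 4. Over the 2530 protein-coding genes with such calls the mean was 0.705, with the same pair highest at 0.901. These values are descriptions across genes, which share libraries and 1 control. The ratio between a gene's lowest-placed and best rank had a median of 2.13 (range 1.24 to 8.6). Replicate 3 gave the best rank for 22 of the 40 genes and replicate 4 the lowest-placed rank for 23. The same counts over the 2530 protein-coding genes are not given here, so these are not read as a trait of RpL genes. Replicate 3 also had the most calls with a −log10 q above 2, 10424, against 6697, 4575 and 5400 in replicates 1, 2 and 4. Whether that bears on the ranks was not tested.

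Summits at RpL genes were tightly placed. In the optimal list they lay between -80 bp and 47 bp from the nearest TSS of the gene, with quartiles of -36 and -3, and 35 of 45 were upstream. Within 50 bp lay 41 of the 45 (91.1%), against 15.8% for all protein-coding genes with a peak, and within 100 bp lay all 45 (against 32.9%). The medians in replicates 1 to 4 were -11, -19, -7 and -34 bp, a mean of -17.8 ± 11.9 (SD, n = 4). For all protein-coding genes they were -97, -142, -88 and -158 bp, so in each replicate the RpL median was nearer to the TSS, and replicates 1 and 3 placed both sets nearer than replicates 2 and 4 did. RpS genes had a median of -8 bp, mitochondrial large subunit genes -149.5 bp and assembly factors -183 bp in the optimal list. No optimal summit lay inside an RpL gene beyond its promoter window. The RpL genes ran from 422 bp (RpL37-2) to 4606 bp (RpL5) in length. In the shorter ones the window leaves little or nothing of the gene to search. The share for other genes is not given here, so no conclusion on placement is drawn from this absence.

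**Figure D4:**
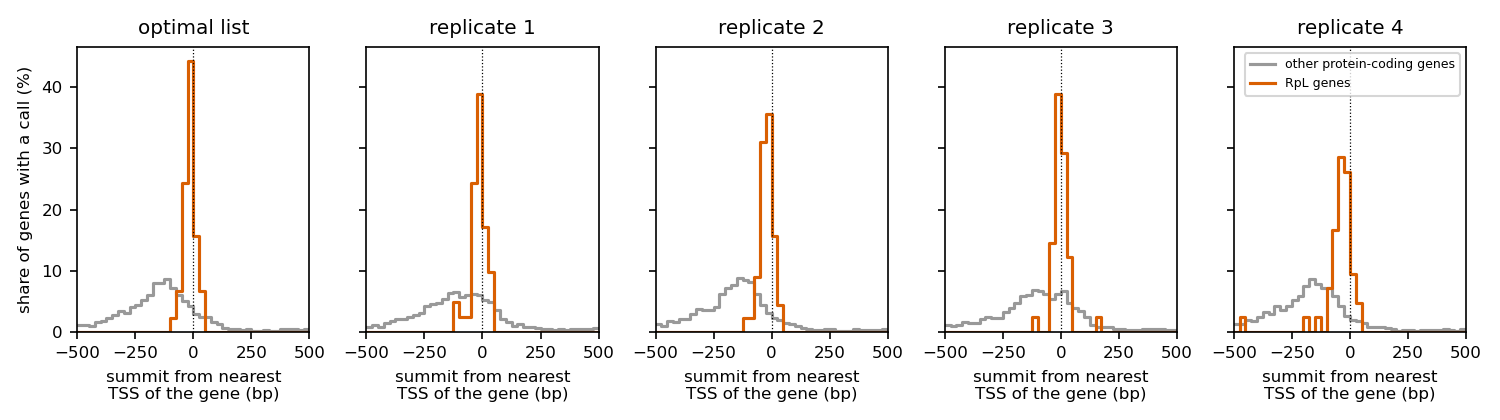
Distance of the strongest promoter summit from the nearest TSS of its gene, in bp with minus upstream, as the share of genes with a call in bins of equal width. RpL genes are in orange and other protein-coding genes in grey, in the optimal list and in the 5211 strongest calls of each replicate. In each panel most RpL summits lie within 100 bp of the TSS, with medians from -34 bp (replicate 4) to -7 bp (replicate 3), and those of other genes are spread more widely.

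Many RpL genes start close to another gene read in the opposite direction. Of the 31 with such a head-to-head partner within 1000 bp, 29 had an optimal promoter peak, against 34.0% of protein-coding genes with a partner. Of the 19 without, 16 had a peak, against 11.9% of protein-coding genes without one. The peak was within 500 bp of a TSS of a further protein-coding gene at 19 of the 45 RpL genes with a peak and of none at 26. The 19 included RpL7, RpL14, RpL34b, RpL13A and RpLP0, so the strong peaks named above were all shared. Among all protein-coding genes with a peak the share with a further gene in reach was 54.9%. RpL13, for example, shared its peak (rank 347) with Dref, the gene of the DRE-binding factor, which starts 84 bp away. When each summit was given only to the protein-coding gene with the nearest TSS, all 45 RpL genes kept their peak, and the background fell to 15.1%. A second optimal summit in the promoter window was found at 6 RpL genes, with summits from -182 bp (RpL27A) to -295 bp (RpL34b) of the TSS. At RpL34a (rank 1246) and RpL34b (rank 2039) it lay in the same peak interval as the first summit.

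RpL genes were also grouped by role. A peak was found at 45 of 50 RpL genes and at 19.9% of protein-coding genes. Counts in such small groups were therefore not read as differences between roles. The genes of the P stalk, which recruits the translation factors, all had a peak. RpLP0 encodes its base and ranked 200, RpLP1 and RpLP2 encode the acidic proteins bound to it and ranked 1078 and 3181, and RpL12, at the foot of the stalk, ranked 1219. The replicate ranks of RpLP1 were 999, 1369, 732 and 1093 and those of RpLP2 were 3622, 3893, 3192 and 2798. All ranks of RpLP2 were thus weaker than all of RpLP1 and RpLP0. Those of RpL12 were 2014, 1060, 810 and 1260, which overlap the ranks of RpLP1.

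All 9 genes of the peptide exit tunnel wall and rim had a peak, with a median rank of 665 (range 282 to 3248). RpL23A, at the tunnel exit where factors dock, ranked 282 (298, 323, 145 and 326 in the replicates). RpL4, which reaches into the tunnel, ranked 419 (634, 335, 502 and 392). RpL35, also at the exit, was the weakest at 3248 (2231, 2941, 7066 and 4893), and 2 replicates held its peak. RpL19, RpL31, RpL22, RpL39, RpL17 and RpL26 lay between.

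Of the 6 genes of the peptidyl transferase region and of late-joining proteins, 5 had a peak. RpL24, a late-joining protein at the subunit interface, ranked 216 (221, 213, 200 and 247), the narrowest spread among the genes named here. RpL8 and RpL3, which surround the catalytic centre, ranked 751 (736, 898, 391 and 1129) and 1092 (770, 1501, 278 and 2392). RpL3 shows a wide spread, with replicate 3 strongest and replicate 4 weakest. RpL10 and RpL29 ranked 2576 and 2761, and RpL40 had no optimal peak. Of the 3 genes of the 5S RNA particle and central protuberance only RpL11 had one, with rank 417 (285, 489, 247 and 753), while RpL5, its partner in binding 5S RNA, and RpL21 had none. Of the L1 stalk genes, RpL10Ab had a peak and RpL10Aa did not. Of the 26 other genes, 25 had one, with a median rank of 707.

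The 5 genes without an optimal peak were of different kinds. RpL37-2 and RpL10Aa had no promoter call in any of the 6 lists. RpL40, which encodes a ubiquitin fused to the ribosomal protein, had a pooled call of rank 26938 and a call in replicate 3 alone, of rank 11296. RpL5 had a pooled call of rank 6741, below the end of the optimal list, with ranks 4810 in replicate 2 and 12747 in replicate 4 and no call in replicates 1 and 3. RpL21 had no pooled call, and calls of rank 28322 in replicate 2 and 9319 in replicate 4. RpL5 and RpL21 were therefore called in the same pair of replicates.

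RpL5 and RpL21 lay in regions with few calls of any kind. Of the 50 RpL genes, RpL5, RpL10, RpL15, RpL21 and RpL38 had fewer than 10 calls within 100 kb in at least 1 replicate list. Around RpL10 there were 0, 7, 0 and 18 calls in replicates 1 to 4, around RpL38 2, 9, 0 and 8, and around RpL15 0, 7, 0 and 7. Around RpL5 there were 0, 3, 0 and 6, and around RpL21 9, 8, 5 and 15. The other 45 genes had between 18 and 99, with medians of 56, 49, 59 and 49.

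The peaks of RpL10, RpL38 and RpL15 rested on replicates 2 and 4. RpL10, with rank 2576, had ranks 3002 and 3163 there, RpL38 (4241) had 3632 and 4208, and RpL15 (4749) had 3703 and 4264. In replicates 1 and 3 none of these 3 genes had a promoter call of any rank, and almost no call lay within 100 kb. Whether the scarcity of calls in those regions affects the calls at these genes was not tested. Without the 5 genes, 42 of 45 RpL genes had an optimal promoter peak. A single replicate lacked a call at 2 further genes. RpL36, with rank 1710, had ranks 1229, 1651 and 989 in replicates 1 to 3 and none in replicate 4. RpL6, with rank 4404, had 6879, 1635 and 5422 in replicates 1, 3 and 4 and none in replicate 2, and only 1 replicate held its peak.

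**Figure D5:**
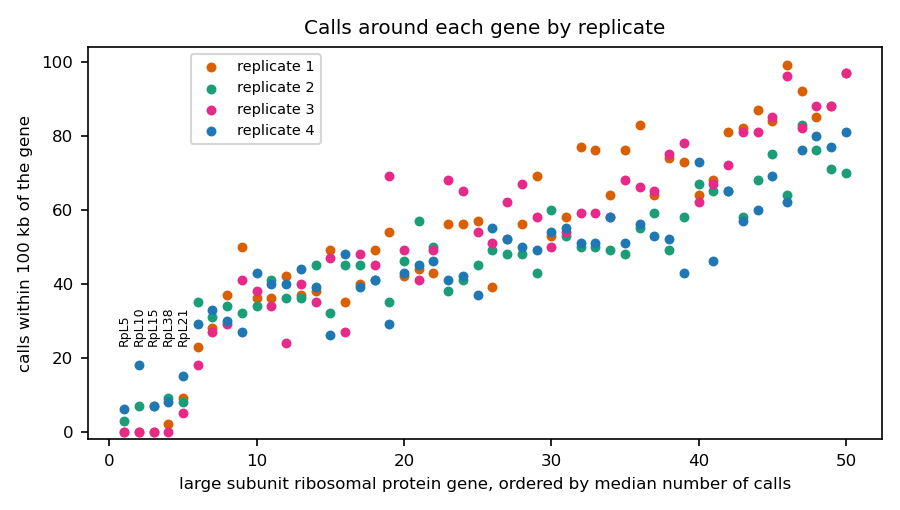
Number of calls of any rank within 100 kb of each RpL gene in the 4 replicate lists, with genes ordered by their median. The 5 named genes at the left have 18 calls or fewer in every replicate and mostly 0 in replicates 1 and 3, and the others have 18 or more.

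Genes in use throughout the body were set beside their paralogs in 7 pairs. RpL10Ab had a peak of rank 2547 (2575, 2193, 2462 and 2727 in the replicates; 3L, 11822736 to 11822884), and RpL10Aa no call. RpL37-1 had a peak of rank 3131 (1767, 3380, 1573 and 8808; X, 15139159 to 15139582), and RpL37-2 no call. In both pairs the gene with the peak was called in every replicate and its paralog in none, although the peaks were weak for RpL genes and replicate 4 placed RpL37-1 far below the others. RpL37-2 holds an initiator word and RpL10Aa does not.

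RpL34b and RpL34a both had strong peaks, of ranks 186 and 255. The replicate ranks of RpL34a were 394, 275, 264 and 235 (3R, 26059182 to 26059535), which overlap those of RpL34b (316, 148, 336 and 195). Each of these peaks covered the start of the gene and that of a head-to-head partner, CG8132 for RpL34b and Trmt61 for RpL34a. RpL34b holds the initiator word within 5 bp of its TSS, whereas RpL34a does not and holds a DRE at its summit.

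The 4 paralogs with symbols ending in -like are outside the 50 genes and were weaker than their counterparts in every replicate that called them. In yeast, the relatives of RpL7-like, RpL24-like and RpLP0-like are known as ribosome assembly factors. RpL22 ranked 665 (389, 900, 349 and 994), and RpL22-like, used in the germ line, had calls of rank 11233 in replicate 2 and 29741 in replicate 4 and a pooled rank of 20984. RpL7 ranked 85, and RpL7-like had a pooled rank of 7263 (26842, 9393, 3669 and 13069). RpLP0 ranked 200, and RpLP0-like had a pooled rank of 6924 (11128, 5890, 5876 and 9738).

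RpL24-like was the only one of the 4 with an optimal peak. It ranked 3372 (1782, 5000, 5864 and 3517), against 216 for RpL24, and its peak on 3R from 11431440 to 11431863 also lay at the promoter of CG5276. Its summit was at -70 bp from the TSS and that of RpL24 at -1 bp. Beyond the calls themselves, which gene of a pair was transcribed in these embryos was not measured.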

How the data were processed

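ChIP-seq peak lists from 4 biological replicates of 1 group were read as deposited. Per the labels and the text files deposited with the samples, the lists are on dm6, each replicate was called against 1 shared control, and the optimal list was made from the 4 replicate lists and the pooled list by an irreproducible discovery rate step. The aligner, the caller and their versions are not given in the sources used here. The deposited signal is the authors' own score for each call, used to rank calls within a list. A further deposited column is the −log10 of each call's q-value, and another gives the summit as an offset from the peak's start. Read counts were not used here, so depth is unknown and values were not weighted by it. The p-value column is filled with a constant and was not used.

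Genes and TSSs came from Ensembl 115 and sequence from RefSeq Release 6, both on dm6 coordinates. A promoter call was a summit within 500 bp of any TSS of the gene, and 1 call could serve several genes. The strongest such call was taken per gene. Python 3.11.15, numpy 2.4.6, pandas 2.3.3 and scipy 1.17.1 were used, and the assignment was tested on simulated calls. With 1 group, values are counts, medians and mean ± SD over replicates, without tests between conditions. The share of RpL genes with an optimal promoter peak carries a 95% Clopper-Pearson interval, and the other shares are given without one. A count of 0 allows up to 3 counts.

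The genes, role groups, paralog pairs and words were chosen with earlier results of these data known, and the 5 added words, the limit of 10 calls within 100 kb and the pairs of replicates were chosen after values were seen. Genes were named by rule: the 6 strongest, all paralogs, all genes without a peak and those in counts of 5 or fewer, and further genes as examples of a role, chosen after their values were seen. Not every gene this rule names is reported here, though all enter the counts.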

Additional observations from a re-analysis of the deposited data

Results flagged for a closer look

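In 42 sets of 4 replicate values, 1 replicate stood apart from the others in 3, and chance marks about 1 set in 20. RpL23A had rank 145 in replicate 3, against 298 to 326 in the others. RpL39, which lines the exit tunnel, had rank 1599 in replicate 4, against 675 to 807. RpL17, at the tunnel exit, had rank 2956 in replicate 4, against 785 to 968. Each of these calls remained among the 5211 strongest of its replicate.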

How the results depend on the processing

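The count of 45 RpL genes with an optimal promoter peak was the same with peak intervals, the 5′-most TSS, windows of 200 or of 1000 bp and the nearest protein-coding TSS. It was 36 in the list down to rank 2605 (background 11.5%). Without the 5 genes in regions of few calls it was 42, for which no background is given here. With each replicate left out, the count held by all the rest was 34 to 38 (34 with all 4), the mean count of strong calls 41.3 to 42.7, and the mean rho 0.846 to 0.899. Ranking by −log10 q, where many peaks tie at the highest value, moved the median rank from 836 to 1470.5. Tied peaks took their average rank, and RpL39, with rank 836 by signal, shared the value 3.77 with RpL7. The move therefore does not show weaker peaks. The initiator count of 30 depended most on its definition: 0 with the C exactly at a TSS, 49 within 20 bp and 18 at the 5′-most TSS only. In the 30 genes the annotated TSS lay a median of 4 bp before the C, a distance bounded by the 5 bp reach of the search. The count of peaks with a core promoter word, 18, became 37 with the 5 added words in their place. The added words were chosen after seeing the data. The share of all promoter peaks with any word of either set is not given here, so neither count has a background. The other alternatives run stayed within 1.5 times the main count or 1 SD. No paired analysis was possible because the 4 replicates form 1 group. Unknown depth limits how far a missing call in a single replicate can be read.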
